A study of Mus musculus with 8 samples.

Results

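The miRNAs described here are those of the distal Dlk1-Dio3 cluster, the mature strands cut from hairpins that lie between Mir379 and Mir410 on mouse chromosome 12. The members were a given list of 48 names, matched by name to the annotated small RNAs. Of these, 46 were listed in at least 1 library, out of 1341 known mature miRNAs listed in the series, and 37 were listed in all 8 libraries. miR-382-3p and miR-539-3p were in no library's list. Small RNA was sequenced from the left liver lobe of 4 wild-type (WT) and 4 Snd1 knockout (KO) mice, with 1 library a mouse. All 8 were male C57BL/6N mice of 8 to 12 weeks, not fasted and sampled around noon. The KO mice lack the first exon of Snd1 in every tissue, since the deletion was made in the germline by a Cre driven by the CAG promoter, and the line was made in embryonic stem cells of another strain and then crossed back to C57BL/6N. The WT mice were littermates from heterozygous pairs, and no other allele or treatment is described for them. Libraries of short RNA hold no Snd1 mRNA, so the knockout could not be checked in them.

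The cluster belongs to an imprinted region in which the non-coding RNAs, among them Meg3, Rian and Mirg, are made from the maternal chromosome and Dlk1 from the paternal one. Its miRNAs are best known from brain, where miR-134 and miR-485 act on dendritic spines and synapses, and in the mouse their loss disturbs the adaptation of liver metabolism at birth, while hepatic miR-379 acts on the secretion of lipid. Snd1 (Tudor-SN) is a nuclease-domain protein of the RNA-induced silencing complex. It is known to cleave some miRNAs and to bind RNA in which adenosine was edited to inosine, and several hairpins of the cluster, those of miR-376a, miR-376b, miR-376c, miR-379, miR-381 and miR-411, are edited in this way in brain.

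The mature sequences of the members that the results turn on are given first, because several are near copies of one another and because bases 2 to 8, the seed, set which mRNAs a miRNA pairs with. They are from RefSeq (GRCm38.p6), which held 44 of the 48 given members, and are written 5′ to 3′ with the seed in capitals. The most abundant members were these:
mmu-miR-411-5p: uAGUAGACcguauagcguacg
mmu-miR-379-5p: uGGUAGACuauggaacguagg
mmu-miR-154-5p: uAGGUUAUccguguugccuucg
mmu-miR-541-5p: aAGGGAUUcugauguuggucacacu
mmu-miR-409-3p: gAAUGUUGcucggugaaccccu
mmu-miR-134-5p: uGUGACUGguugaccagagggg
mmu-miR-369-5p: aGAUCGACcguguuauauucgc
The prefix mmu marks the mouse form, as the files write it, and is mostly left out elsewhere. Members that shared a seed, or differed from another member at a few bases, were these:
mmu-miR-379-3p: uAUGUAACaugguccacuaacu
mmu-miR-411-3p: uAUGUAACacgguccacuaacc
mmu-miR-376b-5p: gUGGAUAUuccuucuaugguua
mmu-miR-376c-5p: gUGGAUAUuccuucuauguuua
mmu-miR-376a-3p: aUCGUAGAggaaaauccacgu
mmu-miR-376b-3p: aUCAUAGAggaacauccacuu
mmu-miR-300-3p: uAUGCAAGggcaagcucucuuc
mmu-miR-381-3p: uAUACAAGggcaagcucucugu

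The seed AUGUAAC was shared by miR-379-3p and miR-411-3p, and UGGAUAU by miR-376b-5p and miR-376c-5p. No other seed was shared among the members with a sequence. The 5p strands of the same neighbouring hairpins, miR-379-5p and miR-411-5p, had different seeds, GGUAGAC and AGUAGAC. The strands of miR-376b-5p and miR-376c-5p were 1 edit apart, those of miR-379-3p and miR-411-3p 2 apart, and miR-300-3p was 3 apart from miR-381-3p, as was miR-376a-3p from miR-376b-3p. Tags with a mismatch can be counted for either strand of such a pair, so their split is uncertain. miR-299a-3p also shared its seed with miR-299b-3p, which is cut from the opposite strand of the same locus.

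Mir379, the first hairpin, lies at chr12:109709060-109709125 (+) and its next neighbour Mir411 at chr12:109710175-109710256 (+). Mir410, the last, lies at chr12:109743715-109743795 (+), and the span from the first to the last is 34.7 kb (GRCm38). The 32 member hairpins are all on the plus strand. In the GENCODE M21 annotation 20 of them, with 30 listed members, lie between genes, 8 hairpins with 10 members overlap exons of Mirg, and 4 hairpins with 6 members lie in its introns. Mirg, a long non-coding RNA, covers chr12:109729764-109749460 (+). The hairpins of miR-379 and miR-411, as drawn here with their mature strands in capitals, carry both strands of nearly the same stem:
Mir379: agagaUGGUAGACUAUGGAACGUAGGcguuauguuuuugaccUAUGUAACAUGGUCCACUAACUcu
Mir411: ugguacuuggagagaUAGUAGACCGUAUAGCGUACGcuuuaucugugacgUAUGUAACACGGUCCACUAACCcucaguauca

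In these livers the distal cluster was a small part of the miRNA pool. Levels are given as CPM, the tags of a miRNA per 1000000 tags of its library, and a mature strand is one tag, so no length enters. Comparisons of level between miRNAs also carry the unequal ligation of different sequences. The 46 members summed to between 153.8 and 380.1 CPM a library, which was 0.01954 to 0.06068% of the tags of known miRNAs and 3889 to 8744 tags. miR-122-5p, the miRNA that defines hepatocytes, reached 206141 to 351742 CPM in the same libraries, which fits the tissue label. Only 4 members averaged 10 CPM or more over the 8 libraries, 23 averaged from 1 to under 10 CPM, and 19 averaged under 1 CPM. The most abundant was miR-411-5p, at rank 147 of the 1341 known miRNAs, and then came miR-379-5p at rank 158, miR-154-5p at rank 184 and miR-541-5p at rank 238. Those 4 made up 59.1 to 73.2% of the members' summed CPM.

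**Figure D1:**
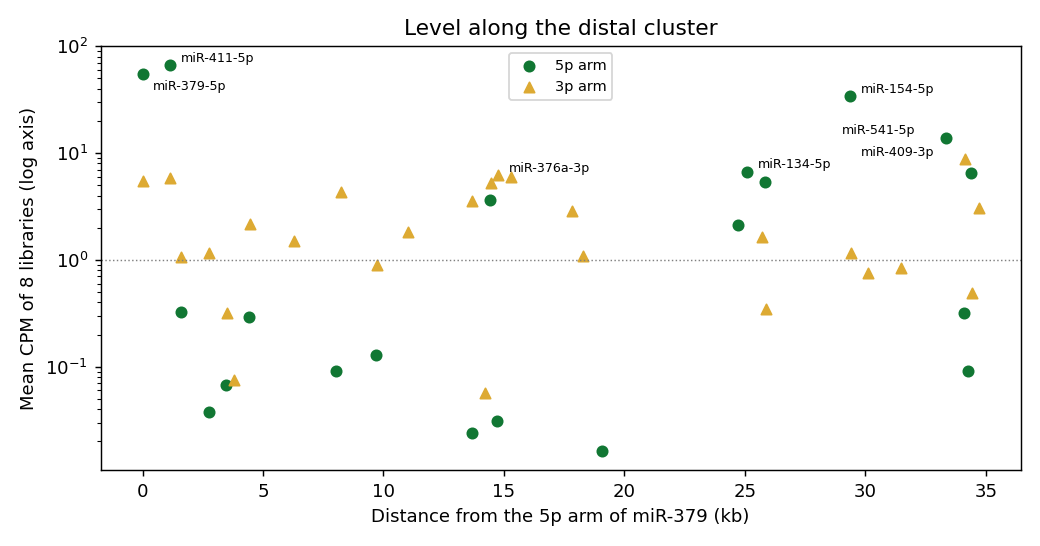
Mean level of the 46 listed members (CPM over 8 libraries, log axis) against the distance of each from the start of miR-379-5p (kb), with circles for 5p strands and triangles for 3p strands; the dotted line marks 1 CPM. The highest levels sit at both ends of the cluster, miR-379-5p and miR-411-5p at the start and miR-154-5p, miR-541-5p and miR-409-3p toward the other end, and members from the same hairpin can lie far apart in level.

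By host gene, the median level was 1.13 CPM for the members between genes, 1.86 CPM for those in exons of Mirg and 4.96 CPM for those in its introns, but members of each set differed from one another by far more than this. miR-539-5p had the lowest mean, 0.0163 CPM, and was listed in 3 libraries. Levels so low rest on single tags: 1 tag was worth 0.0363 to 0.0616 CPM, and a count of 0 allows a level of up to 0.109 to 0.185 CPM, the worth of 3 tags (counting error only).

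The question put to the genotype comparison was whether any member stood at another level in liver without Snd1. In each of the 4 abundant members the WT and KO values overlapped. The CPM of mmu-miR-411-5p was 97.4, 50.2, 73.7 and 41.6 in the WT livers and 46.4, 66.1, 68.6 and 87.6 in the KO livers. The lowest and the highest of the 8 values were both WT. The means were 65.7 ± 25.1 CPM in WT and 67.2 ± 16.9 CPM in KO (SD, n = 4), and the difference of KO minus WT on the log2(CPM + 1) scale was 0.07 (SE 0.35, limma adjusted p = 0.971), with a 95% interval from -0.72 to 0.86.

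mmu-miR-379-5p, the strand tied to hepatic lipid handling, had 74.2, 32.15, 80.4 and 40.2 CPM in WT and 56.8, 30.3, 38.05 and 86.4 CPM in KO. Both groups held livers near 30 and near 80 CPM. The log2 difference was -0.11 (SE 0.43, limma adjusted p = 0.971), with an interval from -1.08 to 0.86. mmu-miR-154-5p, from an intron of Mirg, had 50.0, 17.8, 49.6 and 24.5 CPM in WT and 38.4, 30.4, 23.0 and 37.3 CPM in KO. The KO values lay inside the range of the WT values. Its log2 difference was -0.03 (SE 0.40, limma adjusted p = 0.982). mmu-miR-541-5p, from another intron of Mirg, had 18.7, 3.44, 22.1 and 16.5 CPM in WT and 20.9, 5.49, 9.78 and 14.3 CPM in KO. Its lowest values came from 1 WT and 1 KO liver, and the log2 difference was -0.15 (SE 0.58), with an interval from -1.44 to 1.15.

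**Figure D2:**
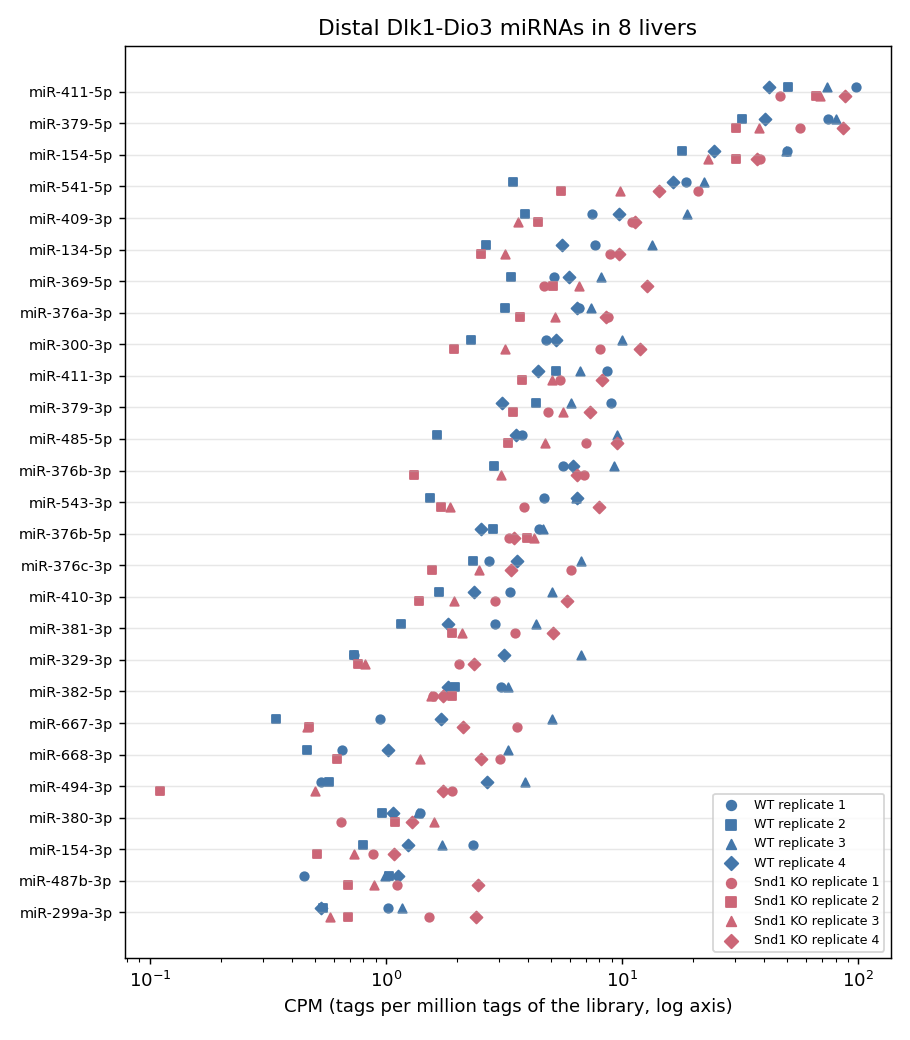
CPM (log axis) of the 27 tested members in each of the 8 livers, ordered by mean level, WT in blue and Snd1 KO in red, with 1 marker shape for each replicate number. The WT and KO markers of every one of these members overlap, and WT 3 and KO 4 lie toward the right (higher) while WT 2 and KO 2 lie toward the left in most of them.

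Among all known miRNAs, 475 reached 1 CPM in at least 4 of the 8 libraries and were tested, and 27 of the 46 listed members were among them. The filter takes no account of genotype. limma called 0 of the 27 members at an adjusted p under 0.05, where it called 0.0% of the 475. At an unadjusted p under 0.05 it found 0 of the 27 members against 4.21% of all tested miRNAs. limma-voom on tags recovered from the CPM also called 0 members, and it had 0 members and 4.0% of all tested miRNAs at an unadjusted p under 0.05. Members whose 4 KO values all lay above or all below the 4 WT values numbered 0 of 27, where 1.26% of all tested miRNAs had KO above WT and 1.68% KO below WT, 2.95% in all. The adjusted p-values of the members in limma ran from 0.842 to 0.982. When the tags of the 4 mice of a genotype were pooled, which leaves out the spread between mice, 19 of the 27 members were called, as were 76.2% of all tested miRNAs. These were 7 members higher in KO, beside 30.7% of all, and 12 lower, beside 45.5% of all.

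The log2 differences of the 27 members lay between -0.46 and 0.44, with a median of -0.09, beside a median of -0.11 over all 475. The difference was above 0 in 10 members and below 0 in 17. That is 37.0% above 0, where 41.3% of all tested miRNAs were. The count above 0 rested on single livers: it was 6 without WT 2 or without KO 4, 18 without KO 2 and 20 without WT 3. With median-ratio scaling it was 13 of 27. A missed threshold does not show that the genotypes were alike, so the intervals count more here. The 95% interval of the difference (for each miRNA alone) lay wholly within 1 log2 unit on either side of 0 in 12 of the 27 members, or 44.4%, against 37.3% of all tested. The upper bound was under 1 in 20 members and the lower bound above -1 in 16. The widest bounds were 1.46 for miR-485-5p and -1.49 for miR-329-3p. The intervals are on the log2(CPM + 1) scale, where the added 1 draws the differences of members near 1 CPM toward 0. A unit there is thus no fixed fold change for such members. With 0.25 added instead, miR-154-3p went from -0.46 to -0.705 and miR-299a-3p from 0.29 to 0.43.

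**Figure D3:**
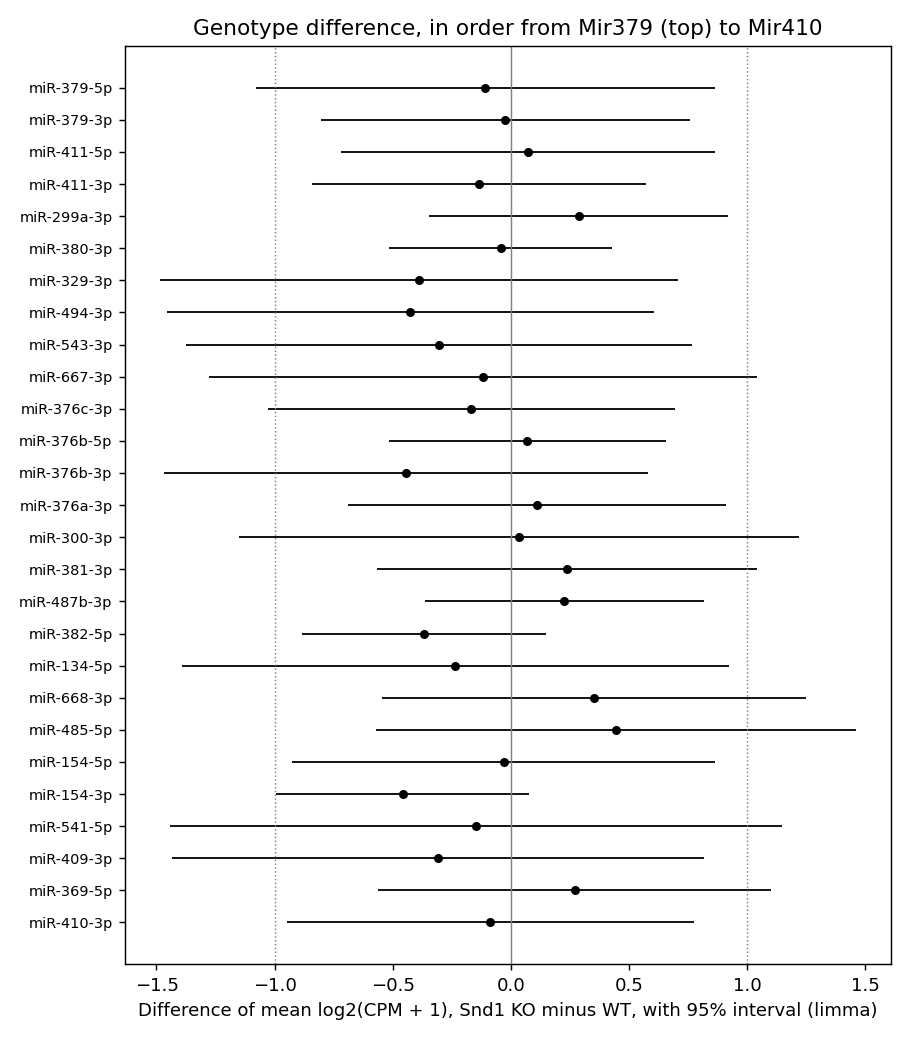
Difference of KO minus WT on the log2(CPM + 1) scale for the 27 tested members, in order along the chromosome, as points with 95% limma intervals. Every interval holds 0, and the points run from -0.46 (miR-154-3p) to 0.44 (miR-485-5p).

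The member with the lowest p was miR-154-3p, the strand of the miR-154 hairpin that is the less abundant. It had 2.32, 0.80, 1.73 and 1.23 CPM in WT and 0.88, 0.51, 0.73 and 1.08 CPM in KO. The KO values took lower places, but WT 2 lay inside the KO range. The log2 difference was -0.46 (SE 0.24, unadjusted p = 0.0853 and adjusted p = 0.842 in limma), with an interval from -0.99 to 0.08. It rested on 14 to 57 tags a library. miR-485-5p, which acts at synapses and comes from an exon of Mirg, had the largest positive difference. It had 3.75, 1.64, 9.49 and 3.53 CPM in WT and 7.0, 3.27, 4.68 and 9.53 CPM in KO. WT 3 and KO 4 were level at the top. The log2 difference was 0.44 (SE 0.45), with an interval from -0.57 to 1.46.

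miR-134-5p, known in neurons for limiting the size of dendritic spines, had 7.67, 2.64, 13.4 and 5.56 CPM in WT and 8.89, 2.51, 3.17 and 9.70 CPM in KO. The groups covered one another, and its log2 difference was -0.24 (SE 0.52). miR-409-3p had 7.46, 3.86, 18.7 and 9.67 CPM in WT and 11.0, 4.40, 3.63 and 11.3 CPM in KO. A single WT liver stood above the other 7. miR-369-5p had 5.14, 3.36, 8.14 and 5.93 CPM in WT and 4.65, 5.09, 6.57 and 12.7 CPM in KO, and here the single highest liver was KO 4. The log2 differences of miR-409-3p and miR-369-5p were -0.31 (SE 0.50) and 0.27 (SE 0.37).

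The miR-379-3p and miR-411-3p strands, which share a seed, had like levels. miR-379-3p had 8.93, 4.32, 6.04 and 3.10 CPM in WT and 4.84, 3.45, 5.61 and 7.29 CPM in KO. miR-411-3p had 8.61, 5.24, 6.60 and 4.38 CPM in WT and 5.44, 3.74, 5.03 and 8.16 CPM in KO. In both, WT 1 was highest and KO 4 next, and the log2 differences were -0.02 (SE 0.35) and -0.14 (SE 0.32).

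Members cut from the hairpins known to be edited in brain were 11 of those listed, of which 9 were tested. Of the 9, 4 had a difference above 0 and 5 below 0, none was called or had an unadjusted p under 0.05, and the median was -0.03 with a range from -0.44 to 0.24. The tables hold no base changes, so editing itself was not measured. miR-376a-3p had 6.57, 3.17, 7.33 and 6.41 CPM in WT and 8.66, 3.67, 5.18 and 8.50 CPM in KO. miR-376b-3p, 3 edits away from it, had 5.63, 2.87, 9.18 and 6.20 CPM in WT and 6.91, 1.31, 3.05 and 6.42 CPM in KO. Both were low in WT 2 and KO 2. Their log2 differences were 0.11 (SE 0.36) and -0.44 (SE 0.46), with intervals that covered one another widely. miR-381-3p stood at 1.15 to 5.06 CPM, and its difference was 0.24 (SE 0.36). miR-300-3p, its near copy, had 4.73, 2.29, 9.99 and 5.24 CPM in WT and 8.02, 1.93, 3.17 and 11.9 CPM in KO, with a log2 difference of 0.03 (SE 0.53).

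Of the tested members with the lowest means, miR-299a-3p had 1.02, 0.54, 1.17 and 0.53 CPM in WT and 1.52, 0.69, 0.58 and 2.40 CPM in KO. miR-487b-3p had 0.45, 1.03, 0.99 and 1.12 CPM in WT and 1.11, 0.69, 0.89 and 2.45 CPM in KO. In both, KO 4 stood alone at the top, and the differences were 0.29 (SE 0.28) and 0.23 (SE 0.26). Of the 19 members that were not tested, those with the highest means were miR-495-3p, miR-377-3p and miR-496a-3p. miR-377-3p had 0.29, 0.42, 3.51 and 0.69 CPM in WT and 0.46, 0.07, 0.19 and 1.12 CPM in KO, so that 57 of its tags came from WT 3 and 2 from KO 2. miR-495-3p ran from 0.15 to 2.59 CPM and miR-496a-3p from 0.22 to 1.62 CPM. In miR-654-3p, singled out after its values were seen, no WT library held a tag, KO 3 held 1 and KO 4 held 10, and the other KO libraries held none.

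The strands of a hairpin come from one precursor, so the plain ratio of their CPM does not depend on how much precursor was made. Both strands were among the listed members for 14 hairpins. The 5p strand was the more abundant in 5 of them and the 3p strand in 9. Other hairpins of the cluster, such as those of miR-541 and miR-134, also had both strands listed, but the partner strand was no member. They are left out of these counts, which thus do not describe the whole cluster. The 5p share of the mean CPM was 96.7% for miR-154, 93.9% for miR-485, 93.0% for miR-369, 91.8% for miR-411 and 91.0% for miR-379. At the other end it was 0.503% for miR-376a and 0.656% for miR-376c. The hairpin of miR-376b stood between these, with 41.4%, although its 5p strand shares all but 1 base with that of miR-376c.

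Of 125 hairpins with both strands above the filter, 4 had both strands among the members. The hairpins of miR-134 and miR-543 also passed the filter. Each had a partner strand that was no member, so they are not among the 4. limma called 0 of the 4, as it called 0.0% of all 125. At an unadjusted p under 0.05 there were 0 of the 4 and 1.6% of all. The log2 ratio of 5p over 3p differed between KO and WT by -0.09 (SE 0.37) for miR-379, 0.21 (SE 0.34) for miR-411, 0.43 (SE 0.35) for miR-154 and 0.51 (SE 0.50) for miR-376b. Each strand had 1 CPM added before the ratio was taken, so where a strand is near 1 CPM the tested ratio also depends on level. This holds for miR-154, whose 3p strand averaged 1.16 CPM. The miR-376b share was the least steady of the 4. Its 5p strand made up 44.1, 49.6, 33.5 and 28.8% of the hairpin's tags in WT and 32.4, 75.1, 58.0 and 35.1% in KO. The more abundant strand thus was 5p in KO 2 and KO 3 and 3p in the other 6 libraries. For miR-379 and miR-411 the 5p share stayed between 87.1 and 94.7% in every library.

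**Figure D4:**
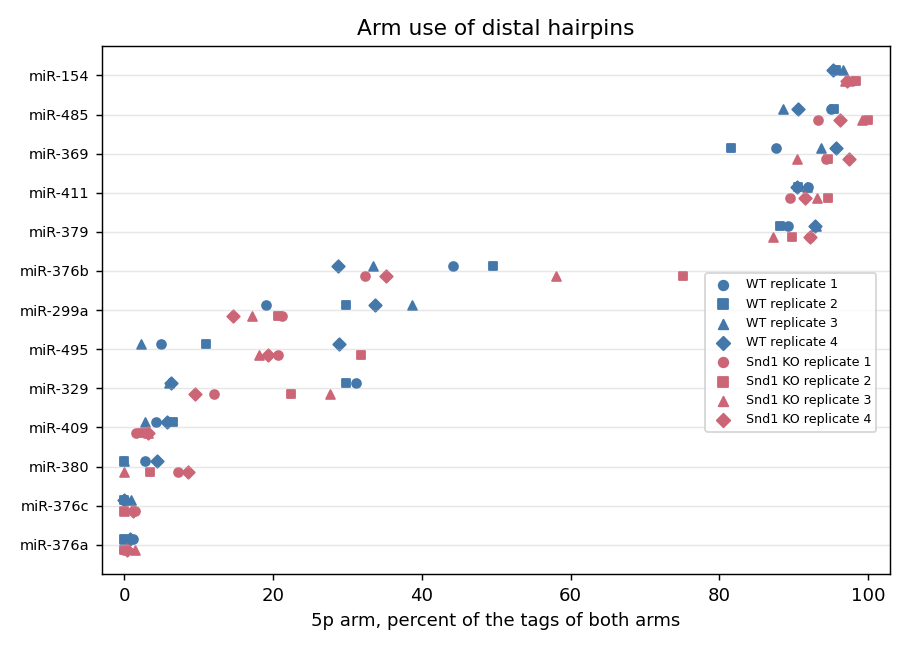
Share of the 5p strand in the summed CPM of both strands (%), in each WT (blue) and Snd1 KO (red) liver. Drawn are the hairpins with both strands among the members, where these together averaged at least 1 CPM. The hairpins of miR-379, miR-411 and miR-154 lie at 87.1% or more in every liver, while miR-376b runs from 28.8 to 75.1%.

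The order of the livers was shared by many members. WT 3 held the highest value of 11 of the 27 tested members, KO 4 of 9 and WT 1 of 5. WT 2 and KO 2 each held the lowest value of 9. Of the 27, 26 were among the upper 4 of their 8 libraries in WT 3 (96.3%, against 61.1% of all tested miRNAs) and 24 were in KO 4 (88.9% against 46.1%). In WT 2 and in KO 2 that number was 2 (7.41%, against 41.5 and 42.3%). The highest library exceeded the lowest by a median of 4.53-fold over the 27 members and 3.69-fold over all 475 miRNAs, and the median SD within a genotype was 0.58 and 0.52 on the log2(CPM + 1) scale.

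The share of tags that were known miRNA also differed between libraries, and followed this order only in part: WT 1, which held the highest value of 5 members, was a library of higher share. The share was 57.9 to 67.6% in WT 3, WT 4, KO 1 and KO 4 and 75.9 to 78.7% in WT 1, WT 2, KO 2 and KO 3, which splits each genotype evenly. The 4 libraries of lower share lay above all 4 of higher share in 7 of the 27 members (25.9%, against 21.1% of all tested), and below them in 0 (9.68% of all). When levels were taken as a share of known miRNA tags these were 10 of 27, against 29.1% of all. Within the higher-share libraries the members' median difference of KO minus WT was -0.17 and 8 of 27 were above 0. Within the lower-share libraries it was 0.11 and 15 were above 0. The median over all tested miRNAs was 0.03 and -0.23 in these sets. With the share as a covariate no member was called in limma, and 1 of all 475 miRNAs was. A single member, miR-494-3p, had an unadjusted p under 0.05, and its limma adjusted p was 0.321. The share of all tested miRNAs under that p was not counted with the covariate, so nothing is read from 1 member. miR-494-3p had 0.53, 0.57, 3.88 and 2.67 CPM in WT and 1.89, 0.11, 0.50 and 1.74 CPM in KO. Each library of lower share thus exceeded each of higher share. Of the 4 tested hairpins with both strands among the members, the log2 ratio of 5p over 3p separated by share in miR-376b and miR-379. In miR-376b it was lower in each library of lower share. In miR-379 it was higher there (3.31 to 3.53 against 2.56 to 2.92). It separated in one direction or the other in 27.2% of the 125 hairpins.

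The summed markers of other liver cells are given beside this order. The mesenchymal list (6 of 6 listed, led by miR-143-3p) summed to 6302, 6496, 6295 and 9197 CPM in WT and 7409, 9858, 8153 and 7332 CPM in KO. Its single miRNAs did not move together. miR-143-3p was highest in KO 2, and miR-199a-3p ran from 31.3 to 938 CPM with its highest value in KO 3. miR-214-3p was highest in WT 3 (296.4 CPM, against 38.7 to 150.4 CPM in the other libraries). miR-145a-5p was 233.8 CPM in WT 3 and 82.5 CPM in WT 2. The endothelial list (miR-126a strands, 2 of 2 listed) summed to 6236 to 19516 CPM in WT and 5812 to 17880 CPM in KO, and the erythroid list (4 of 4, led by miR-451a) to 8089 to 17397 and 7363 to 15235 CPM. Both sums were higher in each library of higher known miRNA share than in each of lower share, as were miR-126a-3p and miR-451a alone. The hepatocyte list separated in the same way (327495 to 382815 CPM against 244947 to 298928 CPM), as did miR-122-5p alone. The tags of all these miRNAs are themselves part of the known miRNA share. The other miRNAs of these lists did not separate in this way. miR-126a-5p had 314.8 CPM in WT 1 (higher share) and 404.4 CPM in WT 3 (lower share). miR-486a-5p was highest in WT 4 (lower share, 319.2 CPM) and lowest in KO 3 (higher share, 62.45 CPM). The leukocyte list (5 of 5) summed to 131.3 to 556.2 CPM in WT and 418.4 to 580.9 CPM in KO. The lowest sum was that of WT 1, where miR-150-5p had 9.62 CPM, and miR-150-5p reached 483.6 CPM in KO 2. Of the 5 leukocyte miRNAs 4 had a log2 difference below 0, with a median of -0.61 over the list, and 1 of these had an unadjusted p under 0.05 in limma. The biliary list (5 of 5) summed to 271.6 to 491.9 CPM in WT and 217.1 to 377.1 CPM in KO. The neural list (7 listed, 3 tested) summed to 554.9 to 852.0 CPM in WT and 389.8 to 582.2 CPM in KO, nearly all of it miR-7a-5p. Its defining miR-124-3p stayed at or below 2.14 CPM and miR-9-3p at or below 0.12 CPM. The part of these cells in the members' levels was not tested, and in whole liver fewer cells of a type and less of a miRNA in each cell cannot be told apart.

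The distal members were then set beside the proximal miRNAs of the same imprinted region, from the Meg3 and Rian side of the cluster, of which 29 were listed and 10 tested. Some of these, the strands of miR-433, miR-341 and miR-431 as well as miR-434-3p and miR-127-3p, were picked by the study from these libraries, so their direction is no independent evidence. The distal members summed to 332.6, 153.8, 380.1 and 207.8 CPM in WT and 268.8, 180.8, 204.0 and 362.3 CPM in KO, with means of 268.5 ± 105.5 and 254.0 ± 81.2 CPM (SD, n = 4). The proximal list summed to 93.9, 64.5, 202.4 and 104.2 CPM in WT and 237.7, 167.0, 185.9 and 393.2 CPM in KO, with means of 116.3 ± 59.8 and 246.0 ± 102.6 CPM. All 10 tested proximal miRNAs had a positive log2 difference, where 41.3% of all 475 did, with a median of 0.77, beside -0.09 for the distal members. limma called 0 of the 10 (0.0% of all tested) and found 4 with an unadjusted p under 0.05 (4.21% of all tested). For the most abundant, miR-127-3p, the difference was 1.00 (SE 0.33, limma adjusted p = 0.803). The strands of miR-1247, beside Dio3, summed to 16.6 to 84.4 CPM in WT and 138.9 to 374.1 CPM in KO. The 1 tested strand, miR-1247-5p, had a log2 difference of 2.47 and was not called. Its unadjusted limma p was under 0.05 (4.21% of all tested), and KO lay above WT without overlap (1.26% of all tested).

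The ratio of the distal to the proximal sum was 3.54, 2.38, 1.88 and 1.99 in the WT livers and 1.13, 1.08, 1.10 and 0.921 in the KO livers. The lowest WT ratio was above the highest KO ratio. miR-127-3p and miR-434-3p made up 73.2 to 83.3% of the proximal sum. Without them the ratio was 19.0, 11.2, 6.99 and 8.81 in WT and 4.92, 6.49, 6.54 and 4.73 in KO, again without overlap. Since part of the proximal list was chosen on these livers, also among the strands left in the second ratio, this is a description, and the difference was not tested.

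**Figure D5:**
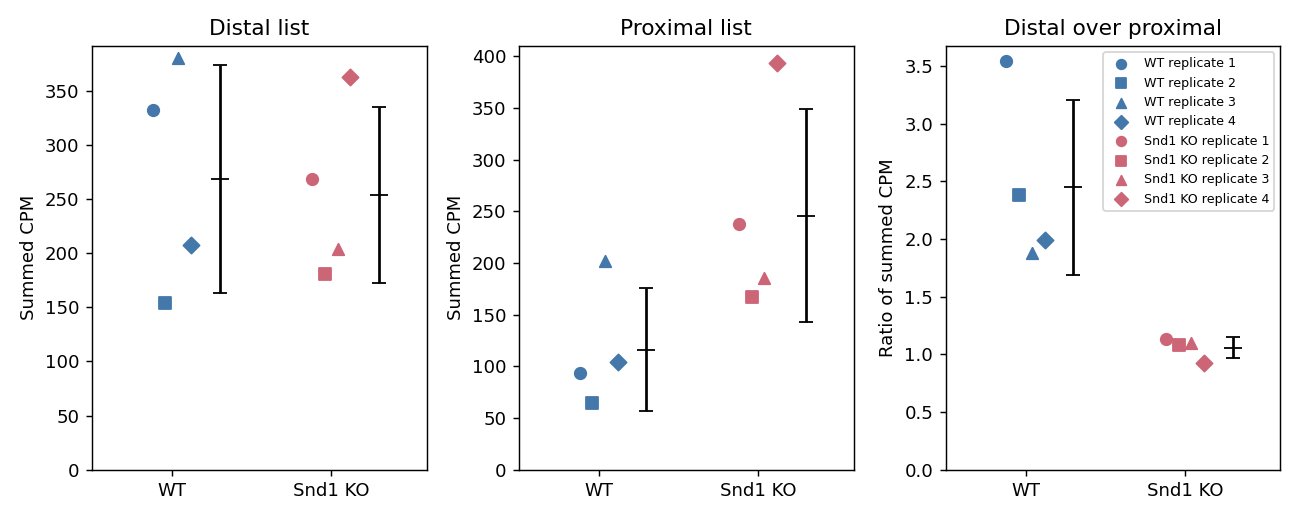
Summed CPM of the distal list and of the proximal list, and the ratio of the former to the latter, in each of the 8 livers, with the mean and SD of each genotype (n = 4) as bars beside the points. The distal sums of WT and KO overlap, while the ratio lies between 1.88 and 3.54 in WT and between 0.921 and 1.13 in KO.

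Snd1 is known to cut miRNAs at CA and UA steps away from the ends. At least 1 such step more than 5 bases from either end was present in 20 of the 24 tested members with a sequence (83.3%), against 79.6% of 402 tested miRNAs with a sequence. The median log2 difference was -0.07 for those 20 members, with 7 above 0, and -0.23 for the 4 members with none. Over all tested miRNAs with a sequence it was -0.14 with a step and 0.06 without.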

How the data were processed

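Small RNA of 18 to 30 bases was size-selected from total RNA of 8 livers, ligated and sequenced, and the authors mapped the tags with Bowtie to GRCm38. The deposited values are CPM: the authors divided the tags of each small RNA by all tags of its library and named the column TPM. Totals for tags in introns, exons, repeats and intergenic sequence were not analysed here for 1 KO library (KO 1), and its CPM still count them in the divisor. Library totals of 16223610 to 27526162 tags were recovered from the steps of the CPM, and 100.0% of values were whole tags within the rounding of the file (0.0051 CPM). That rounding is finer than the worth of 1 tag (0.0363 to 0.0616 CPM). The totals were themselves inferred from the steps, so the recovered tags are estimates.

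Repeated rows of a miRNA were summed and an unlisted miRNA was set to 0. Known miRNAs that reached 1 CPM in 4 or more libraries were tested on log2(CPM + 1) with a pseudocount of 1, using limma 3.58.1 (R 4.3.3) with a mean-variance trend, KO against WT, two-sided, unblocked, with Benjamini-Hochberg adjustment over all 475 and a threshold of 0.05. Strand ratios were tested likewise. No pair of libraries of the same genotype agreed within sampling noise. The labels call the livers biological replicates and do not say which share a litter.

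The members and all marker lists were chosen with earlier results of these data known. Named members were the 12 with the highest mean CPM, any with an unadjusted p under 0.05, without overlap between genotypes or with a changed strand ratio at that p, the 3 tested members with the lowest means and the 3 untested with the highest, along with shared seeds and hairpins edited in brain. Others are given by counts, ranges or as examples chosen after their values were seen. Alternatives covered scaling, filter, pseudocount, limma-voom, pooled tags (the formula of DEGseq, which the authors name), a replicate block, the known miRNA share and each library left out.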

Additional observations from a re-analysis of the deposited data

How the results depend on the processing

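0 members were called under each of the 17 limma alternatives (scaling, filter, pseudocount, voom, covariate, block, each library left out). With the tags of a genotype pooled, which leaves out the spread between mice, 19 of 27 members were called (7 higher and 12 lower in KO), as were 76.2% of all tested miRNAs. The median of the members ran from -0.27 (without WT 2) to 0.10 (without WT 3) as each library was left out, so its sign rests on single livers. It was above 0 without WT 1 (0.015), WT 3 (0.104), KO 2 (0.069) and KO 3 (0.008). Other settings moved it by less than the spread between replicates (0.55). With the replicate number as a block the median was -0.09 and 0 members were called. Same-numbered libraries had correlations of -0.46, 0.35, -0.53 and 0.07. Numbers 1 and 3 join a library of higher known miRNA share with a library of lower share. Numbers 2 and 4 join libraries of the same level. The correlations carry this difference too, so they cannot tell whether the numbers pair the livers. miR-379-3p turned to 0.046 and miR-154-5p to 0.06 with median-ratio scaling, and to 0.024 and 0.022 when scaled to known miRNA tags. As single libraries were left out, the difference changed sign for 11 of 15 named tested members: miR-379-5p -0.38 to 0.11, miR-379-3p -0.23 to 0.20, miR-411-5p -0.12 to 0.29, miR-411-3p -0.307 to 0.015, miR-154-5p -0.31 to 0.17, miR-541-5p -0.69 to 0.16, miR-409-3p -0.64 to 0.036, miR-134-5p -0.58 to 0.085, miR-369-5p -0.007 to 0.44, miR-376a-3p -0.11 to 0.32 and miR-300-3p -0.32 to 0.39. The causes were not tested. 0 of the hairpins with both strands among the members had a called strand ratio in any of 13 alternatives. An edgeR quasi-likelihood test on recovered tags, planned, was not run. The depth limits most members: 19 averaged under 1 CPM, and no member reached 100 CPM.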

Other observations

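Other mature strands between Mir379 and Mir410 that the list of members does not hold were also counted. Of these 19 strands, 3 were tested, and the sum of all 19 was 4.02 to 16.5 CPM a library. miR-1193-3p had 4.28, 1.76, 5.86 and 2.35 CPM in WT and 1.80, 2.36, 2.13 and 6.51 CPM in KO. miR-134-3p, the partner strand of miR-134-5p, had 1.43, 0.92, 4.38 and 1.55 CPM in WT and 3.59, 0.98, 1.43 and 3.81 CPM in KO. miR-543-5p had 2.45, 0.80, 3.14 and 0.80 CPM in WT and 1.70, 1.27, 1.66 and 2.90 CPM in KO. In each the WT and KO livers overlapped and WT 3 and KO 4 held the highest value of their genotype. The log2 differences were -0.15 (SE 0.41), 0.18 (SE 0.41) and 0.12 (SE 0.34), each with a limma adjusted p of 0.971. In 54 groups of 4 livers checked, no single liver stood apart from the others by Dixon's criterion, where chance alone flags about 1 in 20.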
